A study of Mus musculus with 9 samples.

Results

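The S100 genes encode small calcium-binding proteins, and 8 of them, S100a8, S100a9, S100a1, S100a4, S100a6, S100a10, S100a11 and S100a13, were followed here by RNA sequencing in bone marrow cells sorted as Mac1+ from mice of strain C57BL/6. They were matched by gene symbol among the 23420 symbols of the deposited table, and all 8 were among the 10868 genes kept by a filter on low values. The 9 libraries formed 3 genotype groups, and every mouse carried homozygous floxed alleles of Ezh2 (Ezh2 fl/fl) and of Runx1 (Runx1 fl/fl). The DKOITD group (n = 4) also carried Rag1Cre and a heterozygous internal tandem duplication of Flt3 (Flt3 ITD/+). The ITD group (n = 2) carried Flt3 ITD/+ without Cre, and the WT group (n = 3) had neither Cre nor the duplication. Ezh2 is the methyltransferase of a Polycomb repressive complex, Runx1 is a transcription factor that blood stem cells depend on, and Flt3 is a receptor kinase of early progenitors. Mac1, the integrin αM chain encoded by Itgam, marks granulocytes and monocytes. The labels give neither the age of the mice nor their disease state, nor do they say whether the libraries came from separate animals, so the p-values measure the spread between these libraries. Rag1Cre is driven by a gene of lymphoid progenitors, and the sources used here do not give the share of Mac1+ cells in which it had acted.

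S100 proteins are dimers that open a binding surface when their EF-hand loops take up calcium, and through it they bind annexins, myosins and other targets. S100a8 and S100a9 pair into calprotectin, which fills much of the neutrophil cytosol, binds zinc and manganese, delivers arachidonic acid to the phagocyte oxidase and acts on Toll-like receptor 4 and on the receptor for advanced glycation end products once released. The other members are expressed in many cell types. S100a10 is unusual in that it holds annexin A2 without needing calcium.

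Each library came from 100 sorted cells, and the reads recovered from the deposited RPKM (reads scaled to transcript length and library size) ranged from 2825728 in DKOITD 2 to 23124435 in WT 1. Every member was well above the counting floor: the lowest count of any of them in any library was 223 reads, for S100a1. WT 2 stood apart, with a median correlation of 0.759 with the other libraries against 0.815 to 0.881 for the rest. Label numbers were 228, 267 and 274 in DKOITD 1 to 3 and between 385 and 393 in DKOITD 4 and all ITD and WT libraries, and their meaning is unstated. Ezh2 was at 1.54 to 18.1 RPKM in DKOITD, 12.9 to 19.0 in ITD and 2.05 to 12.4 in WT, and Runx1 at 10.4 to 17.6 RPKM in DKOITD, 4.42 in both ITD libraries and 3.53 to 13.02 in WT. Neither differed past the threshold between DKOITD and WT (limma, Benjamini-Hochberg adjusted p = 0.913 and 0.269), and values per gene do not resolve the loss of floxed exons. The sort marker Itgam was at 10.98, 33.3, 24.8 and 39.0 RPKM in DKOITD, 78.1 and 97.3 in ITD and 100.5, 143 and 90.3 in WT, and its log2 difference of DKOITD from WT was -2.11 ± 0.40 (SE, adjusted p = 0.00813).

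Marker genes of other cell types moved with the groups. Over all 10868 genes tested, 5.27% fell and 7.43% rose past the threshold in DKOITD relative to WT. Of 14 neutrophil markers, 11 were in the table and tested, and 10 of these fell in DKOITD relative to WT, among them the granule genes Camp (log2 difference -3.20), Ngp (-2.70) and Lcn2 (-3.54). Their summed level was 9992 to 54190 RPKM in DKOITD, 144621 to 149052 in ITD and 151399 to 175151 in WT. Of 12 tested dendritic cell markers 10 rose, with sums of 9363 to 37855 RPKM in DKOITD, 4204 to 11356 in ITD and 44.3 to 1204 in WT. The 10 were not separate kinds of marker, since Cd74, H2-Ab1, H2-Aa, H2-Eb1 and Ciita all belong to MHC class II. Flt3, also among them, carries the ITD allele that WT lacks (log2 difference 4.56 ± 0.76, SE, limma, adjusted p = 0.00474). Among 7 monocyte markers Ms4a6c and Ccr2, the chemokine receptor by which monocytes leave the marrow, rose, with sums of 2163 to 3405 RPKM in DKOITD, 3773 to 3959 in ITD and 2735 to 3306 in WT. Ly6c2, the most abundant of these markers, was lower in every DKOITD library than in any WT library. It did not pass the test (log2 difference -0.65, limma, adjusted p = 0.128). No promyelocyte marker of 5 passed the test (limma), and those 5 summed to 372 to 2759 RPKM in DKOITD, 423 to 3105 in ITD and 263 to 5667 in WT. The T cell marker Cd3e and the B cell marker Pax5 were listed at 0 in all 9 libraries, but other markers of these cells were detected. Cd3d was at 0.069 to 4.36 RPKM in DKOITD, 2.44 and 17.6 in ITD and 4.92 to 11.6 in WT. The tested T cell markers Cd3d and Cd4 went opposite ways and did not pass (log2 differences -2.22 and 0.95, limma, adjusted p = 0.0602 and 0.0918). Mrc1 rose among 5 tested macrophage markers, whose median log2 difference was -0.98, and Cd79b rose while the other tested B cell marker, Cd79a, was at -0.66. Cd79b was at 42.1 to 70.7 RPKM in DKOITD, 7.65 and 22.1 in ITD and 5.16 to 13.98 in WT. Klrk1, the 1 NK cell marker tested, rose, and Hdc fell among 2 tested eosinophil, basophil and mast cell markers. Erythroid markers summed to at most 1.40 RPKM in DKOITD, 0 and 2745 in ITD and 17.8 to 17156 in WT, where globin Beta-s fell, and NK cell markers to 156 RPKM in WT 2. In bulk samples of sorted cells, fewer cells of a type and less RNA per cell cannot be told apart, and the part of cell makeup in the values below was not tested.

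All 8 members lie on chromosome 3, in 2 blocks (GENCODE vM21, coordinates of mm10). S100a1 (90511034 to 90514392, minus strand) and S100a13 (90514435 to 90524581, plus strand) stand head to head, followed by S100a4 (90603771 to 90606045, plus), S100a6 (90612882 to 90624181, plus), S100a8 (90668978 to 90670035, plus) and S100a9 (90692632 to 90695721, minus). S100a11 (93520488 to 93526287, plus) and S100a10 (93555080 to 93564643, plus) form the other block, 2.82 Mb away. Upstream sequence is shown for the 3 members that fell furthest in DKOITD, S100a8, S100a9 and S100a11, and for S100a4, which did not fall. RefSeq promoter sequences (GRCm38.p6) were found for 7 of the 8 members, all but S100a10, and each is printed 5′ to 3′ along the gene's strand, without bases that GENCODE counts as transcribed. Capitals mark matches on either strand to TTGCNNAA, a form of the C/EBP site, or to GGAAGT, an ETS core such as PU.1 reads.
S100a8, chr3:90668821-90668977, plus strand: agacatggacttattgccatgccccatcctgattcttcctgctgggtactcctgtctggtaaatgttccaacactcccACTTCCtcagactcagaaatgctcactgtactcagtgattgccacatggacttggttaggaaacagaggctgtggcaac
S100a9, chr3:90695722-90695971, minus strand: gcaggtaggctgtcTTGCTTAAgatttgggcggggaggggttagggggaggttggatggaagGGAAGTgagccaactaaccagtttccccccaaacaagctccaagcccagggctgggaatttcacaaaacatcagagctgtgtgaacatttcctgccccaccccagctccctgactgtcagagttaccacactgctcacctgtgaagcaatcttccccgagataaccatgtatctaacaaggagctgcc
S100a11, chr3:93520246-93520487, plus strand: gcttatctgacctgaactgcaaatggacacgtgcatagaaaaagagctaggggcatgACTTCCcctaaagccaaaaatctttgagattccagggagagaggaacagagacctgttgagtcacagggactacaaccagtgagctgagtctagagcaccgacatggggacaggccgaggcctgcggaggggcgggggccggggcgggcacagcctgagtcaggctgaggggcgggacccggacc
S100a4, chr3:90603520-90603769, plus strand: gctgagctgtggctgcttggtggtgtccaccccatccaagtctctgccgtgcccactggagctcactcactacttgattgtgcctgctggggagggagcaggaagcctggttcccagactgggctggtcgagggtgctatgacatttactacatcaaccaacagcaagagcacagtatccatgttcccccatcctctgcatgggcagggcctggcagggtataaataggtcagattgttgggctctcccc
Of these 4, only S100a9 held the C/EBP letters, 236 to 229 bases before its annotated RefSeq start, and it held the ETS letters at 188 to 183. S100a8 held the ETS letters at 172 to 167 and S100a11 at 193 to 188, while S100a4 held neither. All positions count back from the RefSeq start. The printed runs of S100a8 and S100a11, of 157 and 242 bases, end before that start, so their capitals stand nearer to the printed end. Among the members not shown, S100a1 held the ETS letters at 137 to 132, and S100a6 and S100a13 held neither motif. Of 32851 promoter windows of 250 bases, 9.56% held the C/EBP letters and 19.7% the ETS letters, so a match is common, and it describes letters in a window and not a bound site.

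S100a8 and S100a9, the calprotectin subunits, were the most abundant members in every library and fell in DKOITD relative to WT. S100a8 was at 38954, 138877, 21751 and 170576 RPKM in DKOITD libraries 1 to 4, at 425929 and 467998 in ITD, and at 670182, 725585 and 518857 in WT. It ranked first among all symbols in each of the 9 libraries, yet every DKOITD library lay below every ITD and WT library. Its DKOITD mean was 92539 ± 73301 RPKM (SD, n = 4) and its WT mean 638208 ± 107009 (SD, n = 3). The test compared means of log2(RPKM + 1), 16.03 in DKOITD and 19.27 in WT. Their log2 difference was -3.24 ± 0.64 (SE), or 9.44-fold lower (limma, adjusted p = 0.00933). S100a9 was at 8668, 27338, 5305 and 44588 RPKM in DKOITD, at 117676 and 118311 in ITD, and at 199257, 300483 and 203262 in WT. It ranked second in all ITD and WT libraries and in ranks 9, 2, 10 and 2 in DKOITD 1 to 4. The log2 difference of S100a9 was -3.90 ± 0.62 (SE), or 14.9-fold lower (limma, adjusted p = 0.0041).

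**Figure D1:**
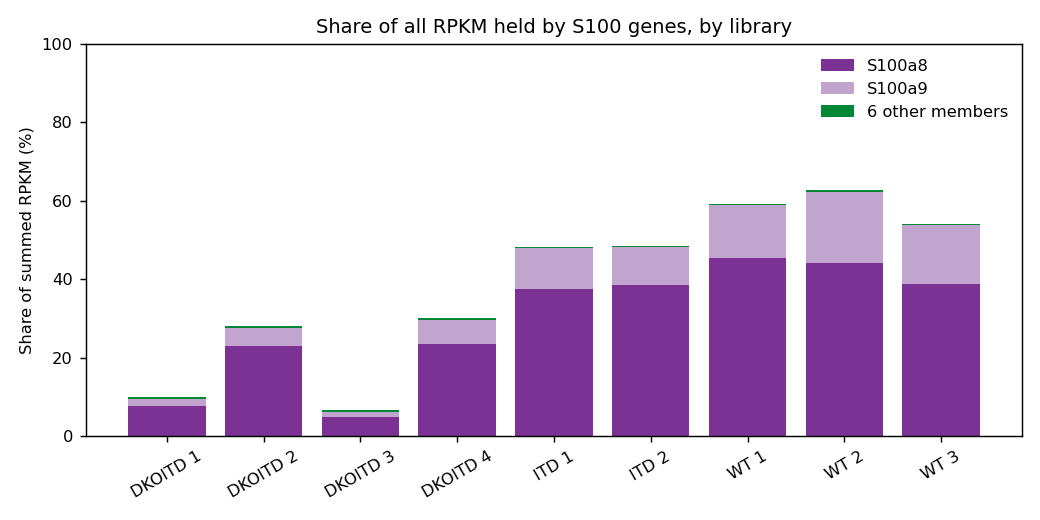
Share of summed RPKM (%, y axis) held by S100a8, S100a9 and the 6 other members in each library (x axis, DKOITD 1 to 4, ITD 1 and 2, WT 1 to 3). The bars of the DKOITD libraries reach 6.66% to 30.1%, those of ITD 48.2% and 48.5%, and those of WT 54.1% to 62.8%; the 6 other members are at most 0.544% anywhere.

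The pair made up much of all the transcript signal. S100a8 and S100a9 together held 9.50%, 27.5%, 6.11% and 29.7% of the summed RPKM in DKOITD, 47.9% and 48.2% in ITD and 58.9%, 62.4% and 53.9% in WT. The 6 other members together held 0.449% to 0.544% in DKOITD, 0.295% and 0.322% in ITD and 0.232% to 0.467% in WT. In recovered reads, which do not correct for the short length of these transcripts, the pair took 5.75 ± 4.23% in DKOITD (SD, n = 4), 20.6 ± 0.03% in ITD (SD, n = 2) and 27.7 ± 3.51% in WT (SD, n = 3). DKOITD libraries 1 and 3 were the low pair and DKOITD 2 and 4 the higher pair, so that the highest S100a8 level was 7.84 times the lowest within DKOITD, against 1.099 within ITD and 1.40 within WT.

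The neutrophil markers moved with the calprotectin genes, and the pair was also read against them. Relative to the mean log2 level of the 11 neutrophil markers in the same library, a measure chosen after the values were seen, S100a8 stood 7.51 ± 0.19 log2 units higher in DKOITD (SD, n = 4), 7.65 ± 0.10 in ITD (n = 2) and 7.92 ± 0.30 in WT (n = 3). The DKOITD range, 7.28 to 7.74, overlapped the WT range, 7.65 to 8.23. S100a9 stood 5.38 ± 0.15 higher in DKOITD, 5.73 ± 0.19 in ITD and 6.47 ± 0.16 in WT (SD). Here DKOITD, 5.25 to 5.58, did not overlap WT, 6.30 to 6.61. S100a11 and S100a6, which also fell in DKOITD, were not lower against these markers. S100a11 stood at -0.35 ± 0.55 in DKOITD (-0.95 to 0.13) and -0.73 ± 0.20 in WT (-0.88 to -0.51). S100a6 stood at 0.95 ± 0.99 in DKOITD (0.03 to 2.07) and -0.32 ± 1.06 in WT (-1.46 to 0.63). This is a description without a test.

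Within a library, the ratio of S100a8 to S100a9 does not depend on how the library was scaled. It was 4.49, 5.08, 4.10 and 3.83 in DKOITD, 3.62 and 3.96 in ITD and 3.36, 2.41 and 2.55 in WT. All 4 DKOITD ratios lay above all 3 WT ratios, so S100a9 was lower relative to S100a8 in these libraries. Both ITD ratios also lay above all 3 WT ratios, and ITD overlapped DKOITD. The log2 ratio differed by 0.66 between DKOITD and WT (two-sided exact permutation test, p = 0.0286, which 4 against 3 libraries cannot go below). Adjusted over the 18 ratio tests run (6 ratios in 3 comparisons), p was 0.129, which does not pass the threshold.

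**Figure D2:**
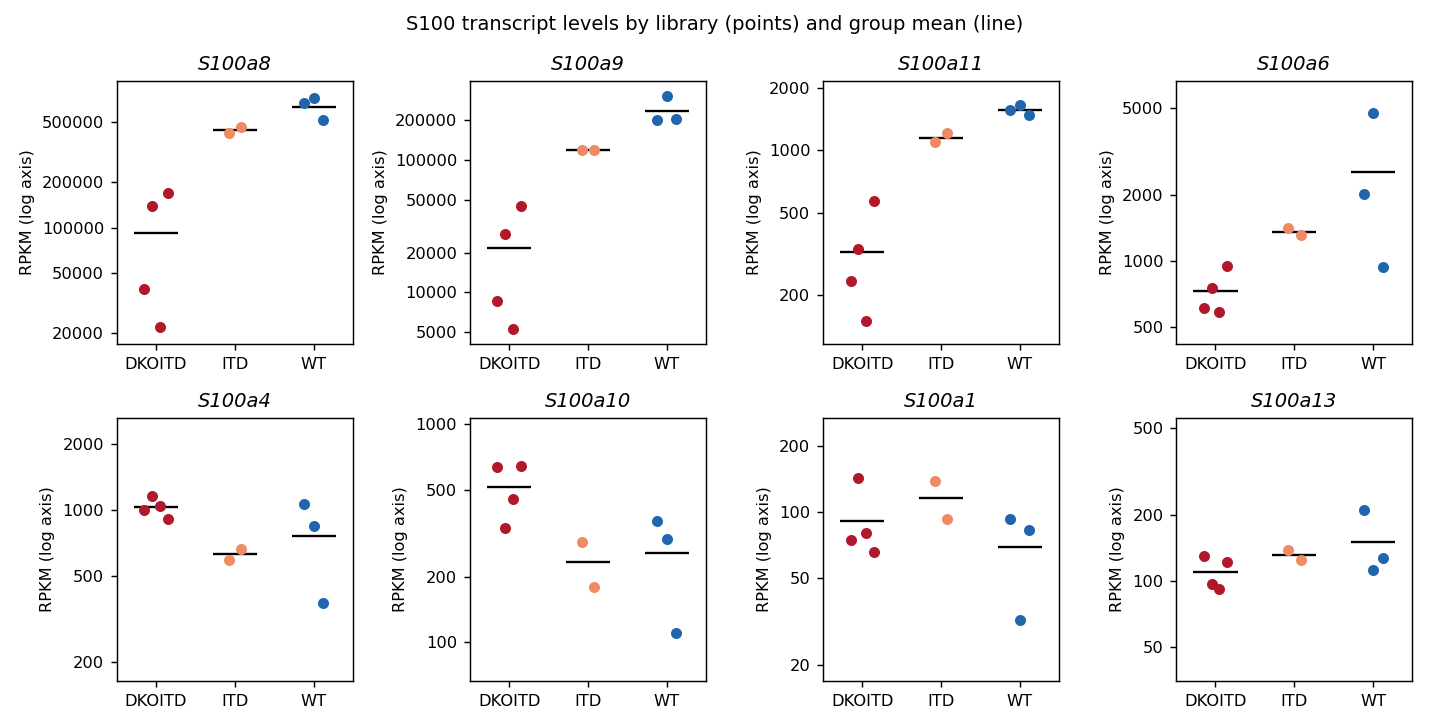
RPKM (log axis) of the 8 members in DKOITD, ITD and WT libraries (points), with a line at the group mean. S100a8, S100a9 and S100a11 are lower in all 4 DKOITD libraries than in any other library, whereas S100a4 and S100a10 are lowest in a WT library.

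S100a11, known as calgizzarin and a partner of annexin A1, fell in DKOITD as well. It was at 234, 335, 151 and 573 RPKM in DKOITD, 1096 and 1208 in ITD and 1559, 1661 and 1483 in WT. The groups did not overlap, and the WT libraries differed by 1.12 times between the lowest and the highest. The log2 difference of DKOITD from WT was -2.44 ± 0.37 (SE), or 5.44-fold lower (limma, adjusted p = 0.00346). S100a11 ranked between 83 and 376 among all symbols in DKOITD, 43 and 46 in ITD and between 34 and 37 in WT. A processed pseudogene of S100a11 lies on chromosome 12, and the sources used here do not say how reads were split between near-identical copies.

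S100a6, known as calcyclin and a binder of the ubiquitin ligase adaptor Cacybp, passed the test, but less firmly. It was at 612, 753, 584 and 952 RPKM in DKOITD, 1411 and 1312 in ITD and 2017, 4745 and 938 in WT. The groups overlapped, because DKOITD 4 (952) lay above WT 3 (938), and the WT libraries differed by 5.06 times. The log2 difference of DKOITD from WT was -1.54 ± 0.44 (SE, limma, adjusted p = 0.0387). Without WT 2 it was -0.95 (adjusted p = 0.122), and it kept its call in 8 of 22 alternative settings.

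S100a10 and S100a4 had higher means in DKOITD than in WT, but neither passed the test. S100a10, the annexin A2 partner that brings plasminogen and its activators to the cell surface, was at 634, 333, 454 and 642 RPKM in DKOITD, 288 and 180 in ITD and 358, 297 and 111 in WT. DKOITD 2 lay below WT 1, so the groups overlapped. The log2 difference was 1.13 ± 0.41 (SE), with an adjusted p of 0.0862 (limma). S100a4, a binder of non-muscle myosin heavy chain Myh9 that acts on cell movement, was at 994, 1161, 1045 and 902 RPKM in DKOITD, 586 and 665 in ITD and 1065, 841 and 374 in WT. Its DKOITD libraries were the most alike of any member in that group, with a highest level 1.29 times the lowest. Its log2 difference from WT was 0.56 ± 0.33 (SE, limma, adjusted p = 0.272). Scaled per recovered read, which raised the median of all genes to 0.74, the differences were 1.89 for S100a10 and 1.32 for S100a4, and both passed (limma, adjusted p = 0.00767 and 0.0153). That scaling called 2525 of the 10868 genes tested as higher and 247 as lower, so a higher call was common there too.

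S100a1 and S100a13 were the least abundant members. S100a1, best known from heart muscle where it acts on calcium handling, was at 74.4, 143, 80.2 and 65.6 RPKM in DKOITD, 139 and 93.5 in ITD and 92.8, 32.0 and 83.1 in WT. S100a13, which takes part in the release of fibroblast growth factor 1 and interleukin 1 alpha, was at 129, 96.4, 91.9 and 122 RPKM in DKOITD, 139 and 124 in ITD and 212, 112 and 127 in WT. The groups overlapped for both genes. Their log2 differences of DKOITD from WT were 0.45 ± 0.41 for S100a1 and -0.41 ± 0.29 for S100a13 (SE, limma, adjusted p = 0.468 and 0.355). The 2 genes are 42 bp apart in GENCODE and share 98 bases in RefSeq, and without strand the reads of shared bases cannot be told apart.

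**Figure D3:**
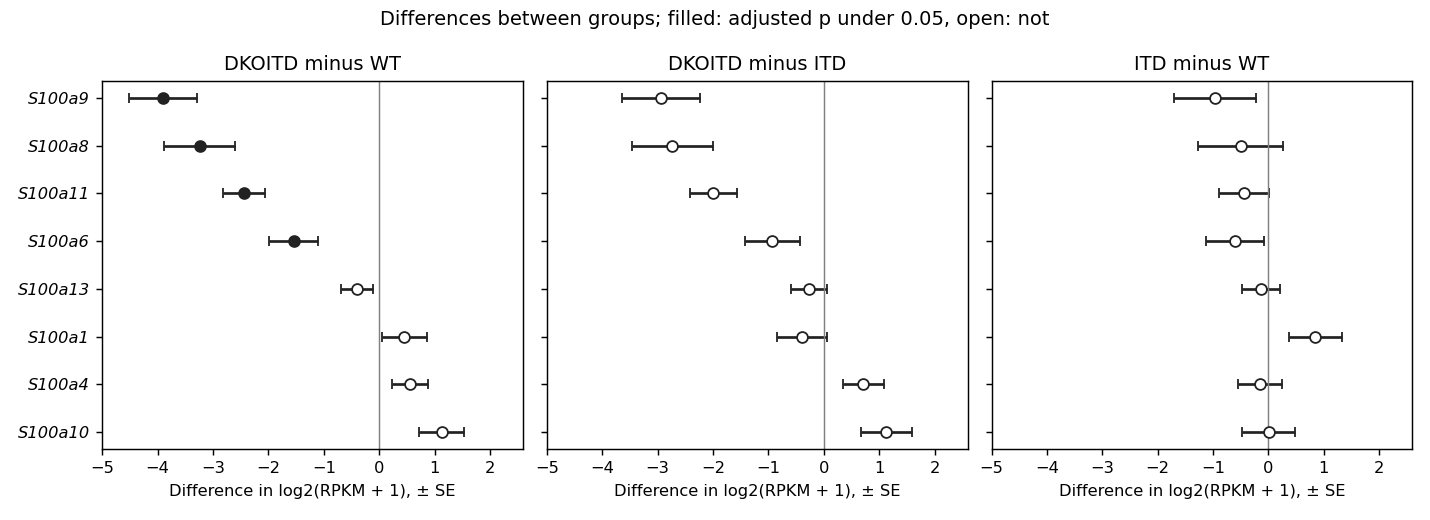
Difference in log2(RPKM + 1) with its SE (x axis) for the 8 members (y axis) in DKOITD minus WT, DKOITD minus ITD and ITD minus WT. Filled points have an adjusted p under 0.05. In DKOITD minus WT, S100a9, S100a8, S100a11 and S100a6 are filled and lie from -3.90 to -1.54, and no point is filled in the other panels.

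Of the 8 members, 4 passed the test between DKOITD and WT, all lower, beside 12.7% of the 10868 genes tested (5.27% lower and 7.43% higher). The median log2 difference was -0.98 over the members and 0.17 over all genes tested. In 3 members, all lower, the DKOITD and WT libraries did not overlap, beside 25% of all genes in either direction (10.9% lower). Scaled to each library's summed RPKM, where the median of all genes was 1.23, S100a9 was at -2.49, S100a8 at -1.83 and S100a11 at -1.04, and these 3 passed (limma, adjusted p of 0.0149 or less), while S100a6 was at -0.14 (adjusted p = 0.781). On that scaling S100a1, S100a4, S100a10 and S100a13 passed as higher, at 1.84, 1.96, 2.53 and 0.99, the last below the median of all genes. That scaling called 5008 of the 10868 genes tested as higher and 127 as lower, so a higher call was common. Scaled per recovered read, S100a9, S100a8 and S100a11 were at -3.13, -2.47 and -1.68, past the threshold, and S100a6 at -0.78 (adjusted p = 0.164). The order of the mean RPKM, which is per length, also differed. In DKOITD it ran S100a8, S100a9, S100a4, S100a6, S100a10, S100a11, S100a13 and S100a1, and in WT S100a8, S100a9, S100a6, S100a11, S100a4, S100a10, S100a13 and S100a1. Neighbours in that order overlapped between libraries of the group for S100a8 and S100a9, S100a4 and S100a6, S100a6 and S100a10, S100a10 and S100a11, and S100a13 and S100a1 in DKOITD, and for S100a6 and S100a11, and S100a10 and S100a13, in WT. S100a4 and S100a6, whose order differed between the groups, overlapped in WT as well.

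The label numbers touch this comparison, since 3 of 4 DKOITD libraries carry numbers below 300 and every WT library a number above it. In the fit with that series as a term, none of the 8 members passed: S100a8 was at -1.89 (limma, adjusted p = 0.496), S100a9 at -2.37 (0.35), S100a11 at -1.45 (0.331) and S100a6 at -1.13 (0.603). This fit draws the contrast with WT from DKOITD 4, the only DKOITD library with a number above 300, whose 170576 RPKM of S100a8 lay below the lowest WT library at 518857.

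The comparison of DKOITD with ITD, groups that share the Flt3 ITD allele and differ in Rag1Cre, had the same direction for the 4 members with lower levels but gave no call. S100a9 was 7.67-fold lower, with a log2 difference of -2.94 ± 0.70 (SE, limma, adjusted p = 0.0717), S100a8 at -2.74 ± 0.73 (adjusted p = 0.0947) and S100a11 at -1.999 ± 0.42 (adjusted p = 0.0613). S100a6 was at -0.93 ± 0.49, S100a10 at 1.13 ± 0.46, S100a4 at 0.71 ± 0.37, S100a1 at -0.39 ± 0.46 and S100a13 at -0.27 ± 0.33 (SE, limma, adjusted p = 0.257 to 0.75). None of the 8 members passed, beside 0.212% of all genes (0.0552% lower and 0.156% higher). At an unadjusted p under 0.05 there were 4 of the 8 members and 1701 of the 10868 genes tested, and limma voom on recovered reads called 0 genes. The libraries of the groups did not overlap in 6 members, S100a8, S100a9, S100a11 and S100a6 lower and S100a4 and S100a10 higher, beside 31.3% of all genes (14% lower and 17.3% higher). Without DKOITD 4, S100a8, S100a9 and S100a11 passed, at -3.19, -3.45 and -2.33 (adjusted p = 0.0461, 0.0228 and 0.0123). That fit sets label numbers below 300 in DKOITD against numbers above 300 in ITD, so genotype and label series cannot be told apart in it, and with the series as a term none of the 8 members passed.

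ITD and WT differ in the Flt3 ITD allele alone. S100a9 was at -0.96 ± 0.74, S100a6 at -0.61 ± 0.52, S100a8 at -0.50 ± 0.77 and S100a11 at -0.44 ± 0.45 on the log2 scale (SE, limma, adjusted p = 0.761 to 0.882). S100a1 was at 0.85 ± 0.48 (adjusted p = 0.695), and S100a4, S100a10 and S100a13 lay between -0.15 and 0.00. None of the 8 passed, beside 0.0092% of all genes, and limma voom called 0 genes. None of the 8 had an unadjusted p under 0.05, against 862 of the 10868 genes tested. Both ITD libraries lay below all WT libraries in S100a8, S100a9 and S100a11, and above them in S100a1, beside 19.1% of all genes with no overlap (8.99% lower and 10.1% higher). The 3 comparisons share libraries, so their values are set side by side and not counted as separate support.

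**Figure D4:**
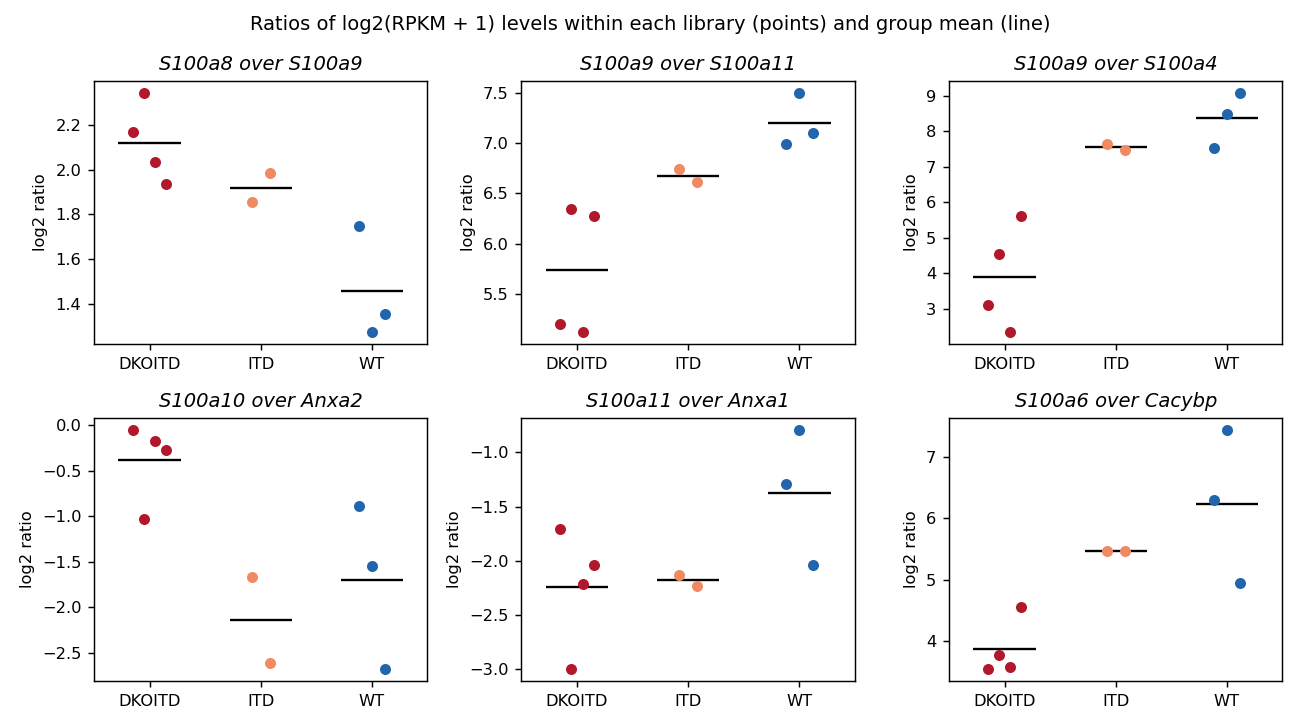
log2 ratio of the levels (y axis) of 2 S100 genes, or of an S100 gene and a binding partner, within each library (points), by group, with a line at the group mean. In DKOITD against WT, S100a8 over S100a9 is higher and S100a9 over S100a11, S100a9 over S100a4 and S100a6 over Cacybp are lower in every library, while S100a10 over Anxa2 and S100a11 over Anxa1 overlap.

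The levels within a library show how unequally the family moved. S100a9 over S100a4 was 8.72, 23.5, 5.08 and 49.4 in DKOITD, 201 and 178 in ITD and 187, 357 and 544 in WT, a log2 difference of -4.46 between DKOITD and WT. S100a9 over S100a11 was 37.1, 81.6, 35.03 and 77.8 in DKOITD, 107 and 97.9 in ITD and 128, 181 and 137 in WT, a log2 difference of -1.46. For both ratios the DKOITD libraries lay below every ITD and WT library, and the difference of DKOITD from WT again reached the lower limit (p = 0.0286, adjusted p = 0.129, two-sided exact permutation test). S100a6 over Cacybp, whose partner gene did not fall, was 11.9, 13.9, 12.2 and 24.0 in DKOITD, 45.3 and 45.4 in ITD and 81.4, 180.0 and 31.9 in WT (log2 difference -2.36, adjusted p = 0.129 by the same exact test).

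S100a10 over Anxa2, its annexin partner, was 0.966, 0.487, 0.889 and 0.8291 in DKOITD, 0.315 and 0.163 in ITD and 0.542, 0.342 and 0.155 in WT. DKOITD lay above both ITD libraries but overlapped WT, because DKOITD 2 was below WT 1 (two-sided exact permutation test, p = 0.0667 against ITD, where no smaller p is possible, and 0.0857 against WT; adjusted p = 0.171 and 0.193). S100a11 over Anxa1 was 0.305, 0.125, 0.215 and 0.243 in DKOITD, 0.228 and 0.212 in ITD and 0.409, 0.578 and 0.243 in WT, and DKOITD overlapped both other groups. None of the 18 ratio tests passed after adjustment.

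Around the 8 members, the rest of the family was close to silent. Of 11 further S100 symbols 9 were in the table; S100a7l2 and S100p were not analysed here. S100a16 was listed at 0 in all 9 libraries, and the highest recovered counts in any library were 1 read for S100z, 7 for S100a5, 9 for S100b, 19 for S100g, 23 for S100a14, 52 for S100a2, 65 for S100a3 and 82 for S100a7a. For such sparse genes these are lower bounds, because the smallest length that gave whole reads was used. S100a5, for example, was fitted at 144 bases against 432 in GENCODE. S100a2, S100a7a and S100a14 entered the test and none passed between DKOITD and WT (log2 differences -1.25, 0.31 and -0.08, limma, adjusted p = 0.394 to 0.932); S100a2, for instance, was at 18.3 RPKM in ITD 1 and 0 in ITD 2. In the stretch from S100a1 to S100a9, 12 of 13 protein-coding genes were in the table, all S100 genes, and 9 passed the filter. Of the 60 protein-coding genes between S100a9 and S100a11, 52 were in the table and none passed it, so S100a11 and S100a10 lie beyond a long stretch with no listed protein-coding gene at 1 RPKM or more in 2 libraries.

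**Figure D5:**
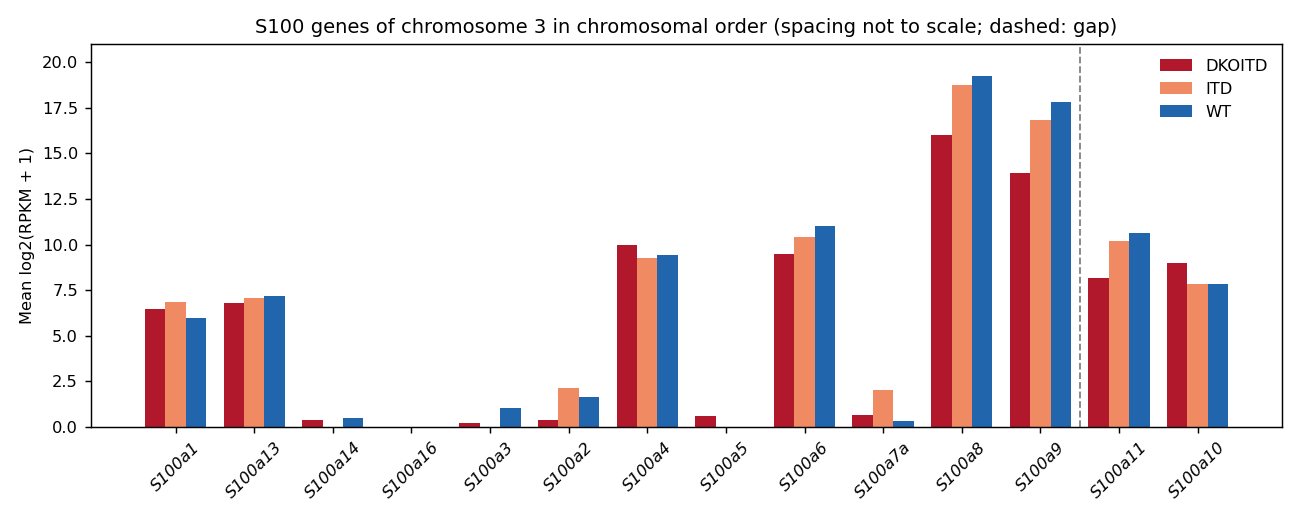
Mean log2(RPKM + 1) (y axis) in DKOITD, ITD and WT of the S100 genes of chromosome 3, in chromosomal order (x axis, spacing not to scale; the dashed line marks the 2.82 Mb gap). The 8 members stand well above their neighbours S100a14, S100a16, S100a3, S100a2, S100a5 and S100a7a.

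Intracellular partners of S100 proteins moved both ways. Of 18 tested of 22, 2 rose and 5 fell in DKOITD relative to WT, beside 7.43% and 5.27% of all genes, with a median log2 difference of -0.40 against 0.17 over all genes. The annexins Anxa6 and Anxa5, calcium-dependent membrane binders, rose by 2.42 ± 0.43 and 1.75 ± 0.27 (SE, limma, adjusted p = 0.00601 and 0.00383), and Anxa5 was at 244 to 392 RPKM in DKOITD, 242 and 243 in ITD and 77.4 to 132 in WT. Anxa1, the partner of S100a11, was at 768, 2684, 705 and 2353 RPKM in DKOITD, 4806 and 5686 in ITD and 3816, 2874 and 6100 in WT, a log2 difference of -1.58 ± 0.48 (limma, adjusted p = 0.0496). Myh9, the myosin bound by S100a4, fell by 1.75 ± 0.43 on the log2 scale (limma, adjusted p = 0.0238). The phagocyte oxidase genes Rac2 and Cybb, named beyond the rule after their values were seen, fell by 1.44 and 1.20 on the log2 scale (limma, adjusted p = 0.0106 and 0.0218).

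Anxa2 was at 656, 684, 511 and 775 RPKM in DKOITD, 914 and 1105 in ITD and 661, 868 and 712 in WT, and did not pass the test (log2 difference -0.19 ± 0.24, limma, adjusted p = 0.619). Cacybp was at 51.5, 54.2, 47.8 and 39.6 RPKM in DKOITD, 31.1 and 28.9 in ITD and 24.8, 26.4 and 29.4 in WT, with no overlap but an adjusted p of 0.0736 (log2 difference 0.82 ± 0.28, limma). No gene of the plasminogen system passed of 4 tested out of 8; the receptor Plaur was at -1.09 ± 0.37 and the activator Plau at -1.16 ± 0.44 (SE, limma, adjusted p = 0.0708 and 0.0988).

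Of 11 tested of 12 genes named for receiving extracellular S100 proteins, 2 rose in DKOITD relative to WT and none fell, beside 7.43% and 5.27% of all genes, with a median log2 difference of 0.97 against 0.17 over all genes. They were Lgals3bp, a secreted glycoprotein and not itself a receptor (2.91 ± 0.64, SE, limma, adjusted p = 0.0138), and Cd69, an early activation antigen (2.79 ± 0.74, adjusted p = 0.031). Lgals3bp was at 121, 14.1, 85.4 and 79.4 RPKM in DKOITD, 35.5 and 36.2 in ITD and 9.36, 3.18 and 10.6 in WT. Cd69 was at 4.22 to 24.5 RPKM in DKOITD, 2 WT libraries were listed at 0, and the third was at 4.74, within the DKOITD range. The best-known receptors, named beyond the rule, were low: Tlr4 was at 2.52 to 6.97 RPKM in DKOITD, 5.04 and 6.74 in ITD and 1.64 to 21.9 in WT, and Ager at no more than 5.51 RPKM in any library.

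Of 9 tested of 10 transcription factors of granulocyte genes, 3 fell and 1 rose in DKOITD relative to WT, beside 5.27% and 7.43% of all genes, with a median log2 difference of -0.76 against 0.17 over all genes. Cebpe, which drives late granulocyte maturation, was at 25.4, 38.4, 11.6 and 32.8 RPKM in DKOITD, 104 and 62.1 in ITD and 87.2, 137 and 242 in WT, a log2 difference of -2.48 ± 0.45 (SE, limma, adjusted p = 0.0068). Cebpd and Cebpb fell by 2.18 ± 0.47 and 2.00 ± 0.52 (adjusted p = 0.0128 and 0.0287), Cebpb with overlapping groups. Irf8, which directs monocyte and dendritic cell fate, rose by 1.42 ± 0.41 (limma, adjusted p = 0.0419). In the partner, plasminogen, receptor and transcription factor lists, no gene passed between DKOITD and ITD or between ITD and WT. The smallest p-values between DKOITD and ITD belonged to Tlr2 (1.39) and Cd14 (1.46) of the receptors, Rac2 (-1.32) and Anxa1 (-1.94) of the partners, Plaur (-1.68) and Anxa2 (-0.63) of the plasminogen system, and Cebpe (-1.66) and Runx1 (1.52) of the factors (log2 differences, limma, adjusted p = 0.0803 to 0.52). Between ITD and WT they belonged to Cd69 (2.70) and Lgals3bp (2.21), Anxa5 (1.31) and Anxa6 (0.96), Anxa2 (0.44) and Plaur (0.59), and Cebpb (-2.06) and Cebpd (-1.53) (adjusted p = 0.295 to 0.754).

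The profiles over the 9 libraries were compared by the root mean square difference of centred log2 levels, where 0 is an identical profile. Among the 28 pairs of members the median distance was 1.24. S100a8 and S100a9 were closest at 0.33, followed by S100a4 and S100a10 at 0.48 and S100a8 and S100a11 at 0.57, and S100a9 and S100a10 were farthest apart at 2.53. Among 4651 other genes, the nearest to S100a8 were Tnnt1 (0.19), a troponin of slow muscle, the granule gene Camp (0.32) and the receptor gene Trem3 (0.33), and those nearest to S100a9 were Tnnt1 (0.32), Lcn2 (0.33) and Camp (0.43). Tnnt1 and Camp lay nearer to S100a8 than its partner did. Tnnt1 was at 0.53, 5.56, 0 and 8.29 RPKM in DKOITD, 15.97 and 17.4 in ITD and 24.1, 34.7 and 26.6 in WT. In DKOITD 1 and 3 Tnnt1 was at the floor, so its distances depend on the 1 RPKM added before taking logs. These distances describe 9 libraries that share scaling and group structure, and no p is attached. S100a11 had Mgst2 (0.14), Abtb1 (0.19) and the oxidase gene Ncf1 (0.21), and S100a6 had Gnai2 (0.14), Ccdc88b (0.21) and Abca7 (0.21). The nearest to S100a4 were Pip4k2a (0.14), Rps14 (0.21) and Foxp1 (0.21), and to S100a10 Gas5 (0.24), Rgs10 (0.27) and Wdr43 (0.27). S100a1 had Klhl9 (0.24), Uchl5 (0.25) and Cirh1a (0.30), and S100a13 had Ptpn18 (0.15), Uqcr10 (0.15) and Minos1 (0.16).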

How the data were processed

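The deposited values were RPKM per gene symbol in 1 table with a column for each of 9 libraries, made by the authors. Per the labels' protocols, 100 cells were sorted into lysis buffer for each library and prepared with Smart-seq2, which does not mark strand. The submitters' processing notes name mm10 as the build and list HTSeq 0.6.1p1, STAR 2.4.2a and SAMtools 1.1 as tools. The sources used here do not give the scaling behind the RPKM.

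A gene was kept where 2 or more libraries had 1 RPKM or more, which left 10868. Values of log2(RPKM + 1) went into limma 3.58.1 under R 4.3.3 (lmFit and trended eBayes). A single fit held the 9 libraries, with a factor for genotype and no other. Tests were two-sided, Benjamini-Hochberg adjusted over all genes kept, with a threshold of 0.05. Fold changes on this scale understate changes of low genes. Groups came from the titles. Whole reads came out of 99.98% of values above 0 (tolerance 0.0001 reads), at the smallest length per gene that gave whole reads in all libraries. Counts of sparse genes are therefore lower bounds. A library's RPKM denominator was 1.13 to 1.44 times its reads in DKOITD, 0.853 and 0.919 in ITD and 0.703 to 0.81 in WT. Reads served for depth and 2 alternatives, limma voom and scaling per recovered read; without molecular identifiers they are not independent molecules. Ratios within a library were compared by exact permutation tests.

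The members and gene lists were chosen with earlier results of these data known. Every member is named; of each other list up to 4 genes past the threshold with the largest change are named, or the 2 with the smallest p where none passed. For each member the 3 genes nearest in profile are named, among genes with a mean log2 level of at least 3, leaving out predicted models. Alternatives covered the pseudocount, the filter, 4 scalings, voom, library weights, a replicate block, the label number series, and each library left out; leaving out DKOITD 2 with WT 2, and scaling without S100a8 and S100a9, were added after the data were seen. Some genes of the lists are not reported here.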

Additional observations from a re-analysis of the deposited data

How the results depend on the processing

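Between DKOITD and WT, S100a8 and S100a9 kept their calls in 19 of 22 alternatives each, S100a11 in 21 and S100a6 in 8. S100a8 and S100a9 lost theirs without the low-value filter (adjusted p = 0.616 and 0.216), under quantile normalization, which holds S100a8, ranked first in every library, at a difference of 0 (S100a9 was at -1.53, adjusted p = 0.161), and with the label number series. The 8 members gave 1 call without the filter, 2 under quantile normalization, 7 scaled to each library's summed RPKM and 0 with the series, and 3 to 4 as single libraries were left out. Of the 7 calls, S100a8, S100a9 and S100a11 were lower, and S100a1, S100a4, S100a10 and S100a13 were higher. Genes called were 733 without the filter, 5135 scaled to summed RPKM, 2772 per recovered read, 4 with the series and 771 without DKOITD 2 and WT 2, and 537 to 1955 as single libraries were left out (606 without DKOITD 1, 537 without DKOITD 3, 762 without WT 2). Higher and lower calls were 807 and 573 as deposited, 2525 and 247 per recovered read, 5008 and 127 scaled to summed RPKM (median of all genes 1.23), 704 and 739 under quantile normalization, and 1541 and 317 scaled to summed RPKM without S100a8 and S100a9. Scaled to summed RPKM, S100a13 turned to 0.99 (adjusted p = 0.028), below that median.

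Between DKOITD and ITD, genes called were 44 with a pseudocount of 10, 1575 scaled to summed RPKM, 274 per recovered read, 0 with voom, 526 with library weights, 0 with the series, 71 without DKOITD 2 and WT 2 and 143 scaled to summed RPKM without S100a8 and S100a9, and 0 to 157 as single libraries were left out. They were 1 without DKOITD 1 or ITD 1, 0 without DKOITD 3 or ITD 2, 157 without DKOITD 4 and 42 without WT 2. Members called were 3 scaled to summed RPKM and 3 with library weights, and 0 to 3 as single libraries were left out. Beside them, of the 10868 genes tested, 1535 were called higher and 40 lower scaled to summed RPKM, and 278 and 248 with library weights. Over the 22 alternatives S100a9 was called in 4, S100a11 in 3 and S100a8 in 2, all as lower. S100a10 and S100a4 were called in 1 each, as higher. Between ITD and WT, genes called were 2 with a pseudocount of 0.1, 0 with one of 10, 3 without the filter, 0 with voom and 2 scaled to summed RPKM without S100a8 and S100a9, and 0 to 47 as single libraries were left out (10 without WT 1, 47 without WT 3, 0 without ITD 2, 2 without DKOITD 2). The cause was not tested for any of these.

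The replicate numbers of the titles did not pair the samples: same-numbered DKOITD and WT libraries deviated together with correlations of -0.021, 0.071 and 0.063, and not every library correlated best with its own number. With the replicate number as a block, genes called were 884 between DKOITD and WT, 57 between DKOITD and ITD and 0 between ITD and WT, and 2 members passed between DKOITD and ITD. Over all alternatives, 466 of 528 member results kept both direction and side of the threshold, 17 passed it newly, 21 lost it and 24 changed sign. None of 180 ratio results passed. Groups held 2 to 4 libraries, and the lowest count of a member was 223 reads, which are not independent molecules. What limited the precision was not tested.

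Apart from S100a13 above, members changed sign only while not past the threshold in either fit. Between DKOITD and WT, S100a13 was at 0.35 per recovered read and 0.030 scaled to summed RPKM without S100a8 and S100a9, and S100a1 at -0.26 without DKOITD 2 and WT 2 and -0.021 to 0.73 as single libraries were left out. Between DKOITD and ITD, scaled to summed RPKM, S100a1 was at 0.67, S100a6 at 0.14 and S100a13 at 0.80. Per recovered read S100a1 was at 0.16 and S100a13 at 0.28, and scaled without S100a8 and S100a9 they were at 0.031 and 0.16. Between ITD and WT, S100a4 and S100a13 were at 0.18 and 0.19 scaled to summed RPKM and 0.058 and 0.070 per recovered read. S100a10, near 0 as deposited, was at -0.0061 with a pseudocount of 10, -0.10 with voom and with library weights and -0.26 with the replicate block. As single libraries were left out, S100a4 ranged from -0.60 to 0.15, S100a10 from -0.52 to 0.34 and S100a13 from -0.32 to 0.13. The log2 ratio of S100a10 to Anxa2 between ITD and WT ranged from -0.92 to 0.037, and that of S100a11 to Anxa1 between DKOITD and ITD from -0.23 to 0.20.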
